A study of Mus musculus with 2 samples.

Results

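Interstitial cells of Cajal (ICC) are the pacemaker cells of the gut wall, and cells carrying the transcripts of both Kit and Ano1 were sought here in grafts of embryonic mouse intestine, among the sorted mesenchymal stromal cells (MSC). A barcode passed with at least 500 detected genes and at most 10% of its unique molecular identifiers (UMIs) from mitochondrial genes. A passing cell was a member when it held at least 1 Kit UMI, at least 1 Ano1 UMI and 0 Ptprc UMIs. In the large intestinal (LI) graft 318 of 9873 passing cells were members (3.22%, 95% interval 2.88 to 3.59). In the small intestinal (SI) graft 59 of 7910 were (0.746%, 0.568 to 0.961), which gave 377 of 17783 cells in all.

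Small and large intestine of EYFP (C57BL/6) embryos, which carry a yellow fluorescent reporter, had grown for 4 weeks beneath the kidney capsules of wild-type (WT) adult hosts. Live YFP+ Itgb1+ cells were then sorted after removal of CD45+, Ter119+, BP3+, CD31+, EpCAM+ and L1CAM+ cells, a gate against leukocytes, red cells, stromal cells of lymphoid tissue, endothelium, epithelium, glial cells and host cells. The EYFP mice came from a reporter strain crossed with Cre mice, and the Cre driver is not named in the sources used here. There was 1 library for each site, and cells are not replicates. Differences are therefore given as values with intervals that cover counting error only, and no test between LI and SI was possible. The LI library pooled several grafts according to the study's methods, and a 3′ or a 5′ kit was used, without a statement of which for which library. The muscle coat is stated to have been stripped from adult intestine, and no such step is stated for grafts.

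ICC lie between and within the muscle layers, where they generate electrical slow waves and pass them to smooth muscle cells (SMC) through gap junctions. Kit, the receptor of stem cell factor, is needed for their development and upkeep, and Ano1, a chloride channel opened by calcium, carries the pacemaker current. Etv1 is an ETS family transcription factor that acts downstream of Kit in these cells. Mast cells and melanocytes also carry Kit, while smooth muscle and some epithelia can carry Ano1.

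The LI library held 11568 barcodes with 63348069 UMIs and the SI library 9631 with 54918006. Members had a median of 4249.5 UMIs in LI, against 5324 in the other passing cells, and 4812 against 5689 in SI. The libraries shared 26 barcodes, of which 0 belonged to a member. By doublet score, 14.2% of LI members and 11.9% of SI members were among the barcodes that would be removed, against 9.91% and 8.15% of other cells, and none were removed.

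Kit, Ano1 and Ptprc chose the cells, so their values are a description. Kit (chromosome 5, 75574916 to 75656722, mm10) had a median of 6 UMIs per LI member (range 1 to 18) and 4 per SI member (range 1 to 19). Ano1 (chromosome 7, 144588549 to 144751974) had a median of 3 in both libraries (range 1 to 15). Just inside the limit, 13 LI and 5 SI members held exactly 1 UMI of each gene. Just outside it, 142 LI and 22 SI cells had Kit without Ano1, with up to 13 and 8 Kit UMIs, and 591 and 737 had Ano1 without Kit. Of the cells with Kit, 69.1% in LI and 72.8% in SI also held Ano1. Of those with Ano1, only 35.0% and 7.41% held Kit. The condition on Ptprc removed 0 cells in either library.

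When the cells of each library were clustered without Kit, Ano1 and Ptprc, most members still lay together. In LI, 235 members (73.9%) fell in cluster 12, in which they made up 83.0% of 283 cells. In SI, 37 members (62.7%) fell in cluster 16, in which they made up 92.5% of 40 cells. Both clusters are called ICC-like from their markers. The rest did not scatter evenly. In LI 47 members lay in cluster 13, 161 cells led by Lcn2, Hand1 and Chil1 that was left unnamed, and 10 lay in the smooth-muscle-like cluster 10. In cluster 13 as a whole 9 ICC markers, Kit and Ano1 among them, were at least 2-fold above the remaining LI cells, as 9 were in cluster 12. In SI 16 lay in cluster 13, 105 cells led by Actg2, Cnn1 and Pcp4, of which 15.2% were members. Values are given below for the members by the rule and, where they part, for these groups.

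**Figure D1:**
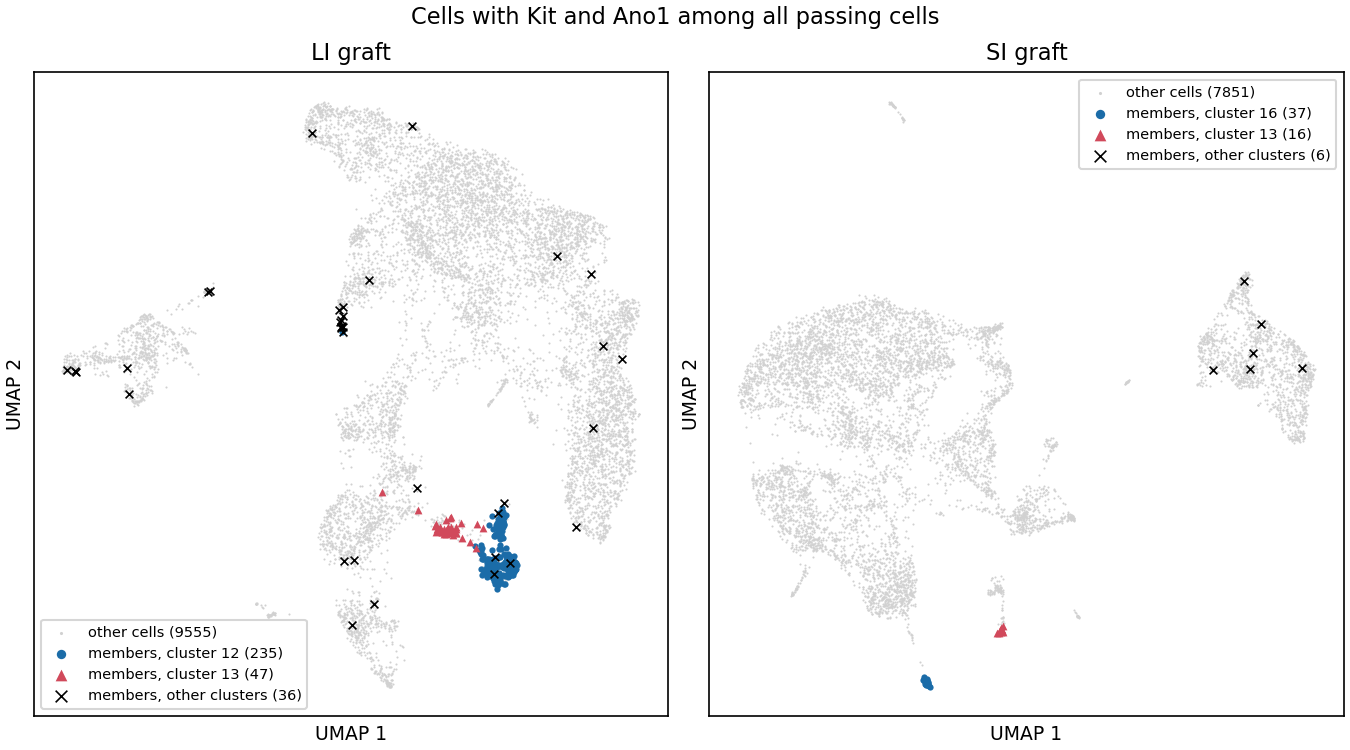
UMAP of all passing cells of the LI graft (left) and the SI graft (right), both axes in arbitrary units, with members marked by the cluster that holds them. In LI 235 members form 1 dense patch (cluster 12) with 47 beside it (cluster 13), and in SI 37 and 16 members form separate patches.

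Etv1 (chromosome 12, 38779380 to 38870484), which the rule did not use, was measured at 876 against 29.6 CPM (log2 4.84, 4.74 to 4.94) in members against other cells of LI and at 806 against 34.7 CPM (log2 4.50, 4.31 to 4.69) in SI. CPM are the UMIs of a gene scaled by all UMIs of the pooled cells, and the log2 ratio carries a pseudocount of 1 CPM and its 95% counting interval. In LI 90.6% (86.8 to 93.5) of members held an Etv1 UMI, against 15.4% (14.4 to 16.5) of fibroblasts (cells with Pdgfra, Col1a1 and Dcn), whose median depth of 5877 UMIs was higher. In SI the shares were 74.6% (61.6 to 85.0) and 20% (18.8 to 21.4), at a median of 4812 and 6209 UMIs. After each cell had been thinned to 2000 UMIs, 74.4% of LI members and 58.9% of SI members still held an Etv1 UMI, against 6.84% and 9.12% of fibroblasts. Thinning left out 10 LI and 3 SI members and 168 and 135 fibroblasts.

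Etv1 differed with the rule genes detected in a cell. Among cells without Ptprc, it was at 25.5 CPM (24.2 to 26.9) with neither gene, 48.1 CPM (41.0 to 56.1) with Ano1 alone and 226 CPM (194 to 261) with Kit alone in LI. In SI the order was another, and cells with Ano1 alone had 22.6 CPM (18.6 to 27.2), fewer than the 35.6 CPM (33.9 to 37.3) of cells with neither gene, and those with Kit alone had 169 CPM (102 to 264). Within the members, those with 2 to 3 summed Kit and Ano1 UMIs had 474 CPM (371 to 597) in LI and 130.3 CPM (52.4 to 269) in SI, the latter from 12 cells. Members with 8 to 15 had 908 CPM (832 to 988) and 1105 CPM (940.2 to 1289.9). The SI value depended on the quality limits: under a stricter limit of 1000 genes and 5% mitochondrial UMIs, 22 SI members were left and the log2 ratio fell from 4.50 to 2.47, while that of LI went from 4.84 to 4.49.

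**Figure D2:**
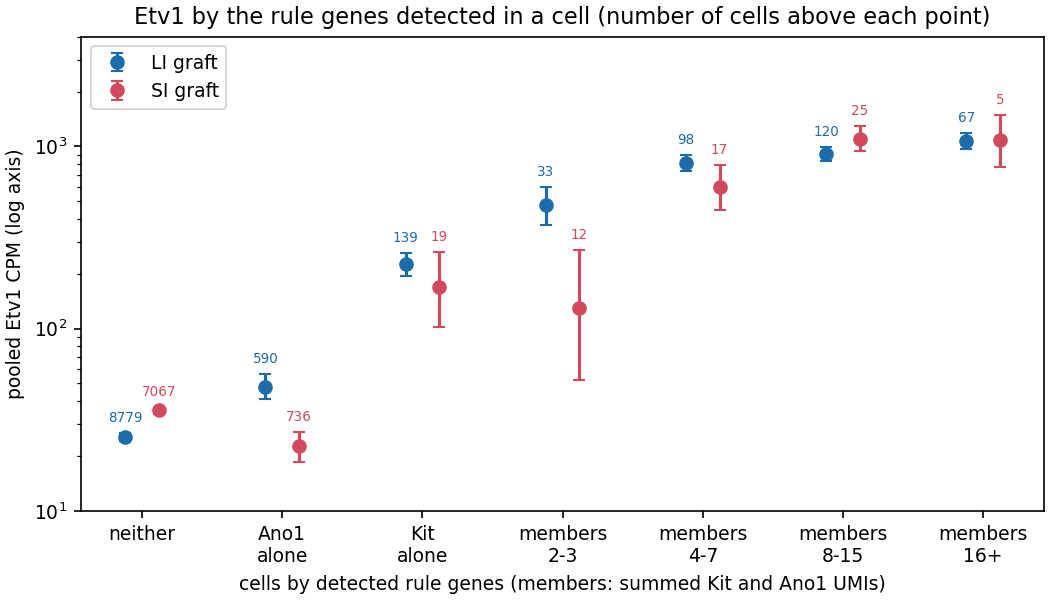
Pooled Etv1 level (CPM, log axis) of cells without Ptprc, grouped by the rule genes they held, with 95% Poisson intervals and the number of cells above each point. In both grafts the members with 8 or more summed Kit and Ano1 UMIs lie between 908 and 1105 CPM, and cells with neither gene lie at 25.5 and 35.6 CPM.

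The ICC list, chosen with earlier results of these data known, held 10 genes besides Kit and Ano1. In LI 9 of them reached 10 CPM in members or in other cells, and 7 of the 9 were at least 2-fold higher in members, where 9.21% of all 9435 genes tested were. In SI 9 of 10 were, against 14.9% of 9376. With the SI members of the leading cluster alone, 8 of 9 tested markers were. The median log2 ratio of the list was 3.83 in LI and 3.51 in SI, beside 0.30 and 0.17 over all genes. Prkcq, a protein kinase C isoform, stood at 311 against 2.88 CPM (log2 6.33, 6.12 to 6.54) in LI and 435 against 3.35 CPM (log2 6.65, 6.34 to 6.94) in SI. Edn3, the ligand of the endothelin receptor B, stood at 448 against 21.1 CPM in LI and 488 against 16.1 CPM in SI. Gja1, a connexin of gap junctions, stood at 668 against 45.9 CPM in LI and 595 against 53.0 CPM in SI, and the orphan receptor Gpr20 at 159 against 6.17 CPM in LI and 507 against 10.4 CPM in SI. All 4 were higher in members of both libraries with intervals clear of 0.

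In the lower direction, 6.92% of all genes tested were at least 2-fold lower in LI members and 13.4% in SI, and the counts of each list are read against these shares. Scaling by TMM factors, which bring most genes to a common level, would move ratios by -0.33 in LI and -0.26 in SI on the log2 scale, and by less for genes near the pseudocount. The medians of all genes were then -0.04 and -0.10. With it 482 genes were higher and 1000 lower in LI, in place of 869 and 653, and 907 and 1746 in SI, in place of 1400 and 1261. Of 308 values of listed or named genes past 2-fold, each gene counted once per library, 262 remained so. The counts of ICC markers were the same with it.

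The list was not uniform. Hcn4, a pacemaker channel of the heart, had 0 UMIs in LI members, which allows up to 1.90 CPM at 3 UMIs, and 7 UMIs in 3 SI members. Thbs4, a matricellular protein, was about level in LI (116 against 119 CPM, log2 -0.05, -0.27 to 0.16) and was higher in SI members (488 against 44.2 CPM, log2 3.44, 3.19 to 3.67). Cd44, a hyaluronan receptor, stayed under 2-fold in both (0.85 and 0.87 on the log2 scale). Per cell, members held a median of 5 of the 10 markers in LI and 6 in SI, and other cells a median of 1 in both. At 2000 UMIs, 67.9% of LI members and 73.2% of SI members held 3 or more, against 1.12% and 0.888% of other cells.

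**Figure D3:**
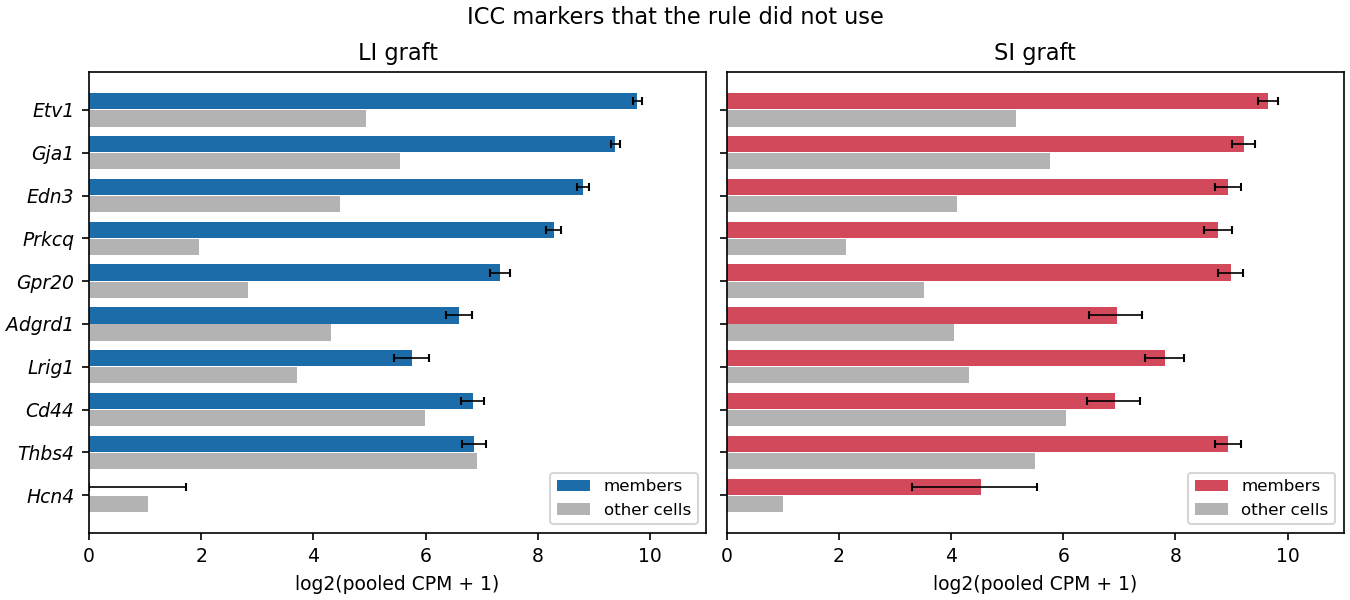
Pooled level, as log2(CPM + 1), of the 10 ICC markers that the rule did not use, in members (coloured, with 95% Poisson intervals) and other passing cells (grey) of each graft. Etv1, Gja1, Edn3, Prkcq and Gpr20 are far apart in both grafts, while Thbs4 and Hcn4 are higher in members of SI and not of LI.

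Genes were then ranked over the whole transcriptome by the mean of the LI and SI ratios, and the 20 highest are named here. Etv1, Prkcq, Gpr20, Edn3 and Gja1 were among them. The highest after Prkcq was Ctxn3, at 317 against 4.14 CPM (log2 5.95, 5.76 to 6.15) in LI and 183 against 2.36 CPM (log2 5.77, 5.34 to 6.18) in SI. The basic helix-loop-helix factor Hand1 stood at 217 against 8.92 CPM (log2 4.46, 4.27 to 4.65) in LI and 457 against 3.16 CPM (log2 6.78, 6.48 to 7.07) in SI. In LI most of its UMIs lay outside the leading cluster, with 111 CPM in members of cluster 12 and 645 CPM in those of cluster 13. The cells of LI cluster 13 that were no members held Hand1 at 289 CPM. Kcnk3, a background potassium channel that is closed by acid, stood at 373 against 7.05 CPM (log2 5.54, 5.37 to 5.71) in LI and 579 against 13.1 CPM (log2 5.37, 5.13 to 5.60) in SI. The calcium pump Atp2a3 of the endoplasmic reticulum stood at 222 against 6.71 CPM (log2 4.85, 4.65 to 5.05) in LI and 324 against 8.36 CPM (log2 5.12, 4.80 to 5.43) in SI. These genes were at 2.36 to 13.1 CPM in the other cells of the 2 libraries. In the SI members of cluster 16 alone, Ctxn3 stood at 302 CPM and Kcnk3 at 933 CPM.

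Metabolic genes were also among the 20. Elovl6, an elongase of long chain fatty acids, stood at 666 against 27.9 CPM in LI and 664 against 29.7 CPM in SI. Slc38a1, a glutamine transporter, stood at 147 against 9.94 CPM in LI and 224 against 11.3 CPM in SI, and Chchd10, a protein of the mitochondrial intermembrane space, at 507 against 55.8 CPM in LI and 1165 against 49.9 CPM in SI. Enpep, the aminopeptidase that cleaves angiotensin, was the member of the 20 with the lowest ratio in SI (log2 2.94, against 4.61 in LI). Scg5, a secretory chaperone of neuroendocrine cells, had log2 ratios of 3.69 and 4.40, and the imprinted growth factor Igf2 had 3.34 and 4.41. Pdzrn4, Sh2d5, Limch1, Apobec2 and Pcp4l1 had log2 ratios from 3.78 to 5.25.

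The pacemaker current depends on calcium release, its return to stores and chloride uptake. Of the 24 genes listed for these steps besides Ano1, 14 were tested in LI, with 7 higher and 1 lower by 2-fold. In SI 17 were tested, with 10 higher and 1 lower, where 9.21% of all LI genes and 14.9% of all SI genes were higher. Of the SI genes that were higher, Pln, Hcn4 and Kcnq5 had 0 UMIs in the members of cluster 16 and came from those of cluster 13. With TMM factors 8 were higher in SI, and Cacna1c and Atp2a2 were under 2-fold. The medians were 1.29 and 1.06. Slc12a2, the cotransporter that loads cells with chloride, stood at 385 against 34.4 CPM (log2 3.45, 3.31 to 3.58) in LI and 671 against 55.3 CPM (log2 3.58, 3.37 to 3.78) in SI. The calcium pump Atp2a2 stood at 1008 against 198 CPM in LI and 475 against 228 CPM in SI, and the plasma membrane pump Atp2b1 at 695 against 199 CPM in LI and 683 against 182 CPM in SI. Kcnh2, a potassium channel that repolarises excitable cells, stood at 54.3 against 6.70 CPM in LI and 113 against 9.78 CPM in SI.

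Some calcium genes differed by site. Cacna1d, an L-type calcium channel subunit, stood at 210.4 against 39.2 CPM (log2 2.39, 2.22 to 2.56) in LI and 28.3 against 24.4 CPM (log2 0.21, -0.87 to 1.11) in SI, while the T-type subunit Cacna1h stood at 8.21 against 6.56 CPM (log2 0.28, -0.50 to 1.01) and 78.7 against 10.1 CPM (log2 2.84, 2.21 to 3.41). Pln, the inhibitor of the reticulum calcium pump, stood at 13.3 against 6.53 CPM (log2 0.92, 0.28 to 1.52) in LI and 545 against 8.63 CPM (log2 5.82, 5.57 to 6.07) in SI, with Pln UMIs in 16 SI members. The store release channel Itpr1 was under 2-fold in both (log2 0.76 and 0.37), and Itpr2 was lower in both (-2.06 and -1.75). The ryanodine receptors Ryr1, Ryr2 and Ryr3 stayed under 10 CPM.

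ICC receive signals from enteric nerves, and 9 of 14 tested genes of this list were 2-fold higher in LI members and 6 of 13 in SI. In the other direction 1 was lower in LI and 3 were in SI. Of all genes tested, 9.21% were higher and 6.92% lower in LI, and 14.9% and 13.4% in SI. Pde3a, a phosphodiesterase that breaks down cyclic AMP, was the most abundant in SI at 559.7 against 111 CPM in LI and 809 against 126 CPM in SI. The kinase Prkg1, which responds to cyclic GMP, stood at 71.4 against 20.2 CPM in LI and 85.0 against 24.6 CPM in SI. Both subunits of the nitric oxide receptor were higher in LI members, Gucy1a1 at 575 against 267 CPM (log2 1.10, 1.01 to 1.20) and Gucy1b1 at 423 against 121 CPM (log2 1.80, 1.68 to 1.91), but Gucy1a1 was under 2-fold with TMM factors (log2 0.78). In SI both were level over all members, at 280.2 against 344 CPM (log2 -0.29, -0.61 to 0.01) and 211 against 210.4 CPM (log2 0.00, -0.36 to 0.35). Among the SI members of cluster 16 alone, Gucy1a1 was below the level of other SI cells, as given further on.

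Most receptors were low in level. The neurokinin receptor Tacr1 stood at 19 against 1.04 CPM in LI (UMIs in 23 members) and 28.3 against 0.643 CPM in SI (in 6). The serotonin receptor Htr2b stood at 65.1 against 3.13 CPM (log2 4.00, 3.67 to 4.32) in LI, and 1 UMI was found in SI members. Of the muscarinic receptors, Chrm3 stood at 13.9 against 0.538 CPM (log2 3.28, 2.65 to 3.81) in LI and Chrm2 stood at 85.0 against 14.1 CPM (log2 2.51, 1.90 to 3.05) in SI. Ptger3, a prostaglandin receptor, stood at 84.0 against 17.1 CPM in LI and 31.5 against 8.01 CPM in SI. Kcnn3, a calcium-gated potassium channel of cells that receive inhibitory nerve signals, was level in LI (log2 0.28) and lower in SI (-1.34). Of the other gap junction genes, Gjc1 stood at 135 against 76.8 CPM in LI and 205 against 123 CPM in SI, under 2-fold in both.

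Of the genes of Kit and MAP kinase signalling, 7 of 18 tested were 2-fold higher in LI members, with 0 lower, and 5 of 17 in SI, with 3 lower. Over all genes 9.21% were higher in LI, and in SI 14.9% were higher and 13.4% lower. The feedback inhibitors of the Sprouty family were not alike. Spry2 was level in LI (73.9 against 64.4 CPM, log2 0.20, -0.08 to 0.46) and lower in SI (25.2 against 70.7 CPM, log2 -1.45, -2.59 to -0.50), while Spry4 and Spry1 were higher at both sites. Spry4 stood at 242 against 38.7 CPM (log2 2.61, 2.45 to 2.77) in LI and 142 against 39.6 CPM (log2 1.81, 1.36 to 2.24) in SI, and Spry1 at 190.1 against 57.7 CPM in LI and 154 against 71.5 CPM in SI, which TMM factors took under 2-fold in SI (log2 0.84). Dusp6, a phosphatase induced by the pathway, stood at 102 against 22.0 CPM (log2 2.17, 1.93 to 2.40) in LI and 9.45 against 18.1 CPM (log2 -0.87, -2.70 to 0.59) in SI. Etv5, a relative of Etv1, stood at 27.8 against 7.27 CPM in LI and 34.6 against 6.90 CPM in SI. Kitl, the ligand of Kit, was higher in LI members (174 against 67.5 CPM, log2 1.35, 1.17 to 1.53) and level in SI (113 against 103 CPM, log2 0.14, -0.37 to 0.61). The kinase Fyn was lower, by less than 2-fold in LI and more in SI (log2 -0.62 and -2.18).

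Among the gut mesenchyme transcription factors, 8 of 18 were 2-fold higher in LI members and 7 of 17 in SI, where 9.21% and 14.9% of all genes were, while 2 and 4 were 2-fold lower. With TMM factors 6 were higher and 3 lower in LI, and 7 and 5 in SI. After Etv1, Meis2 was the most abundant in SI members and it was the most abundant in LI members, at 1008 against 362 CPM in LI and 771 against 242 CPM in SI. Foxf1, a target of hedgehog signalling in gut mesenchyme, stood at 354 against 147 CPM in LI and 419 against 159.9 CPM in SI, and in LI it was under 2-fold with TMM factors (log2 0.94). Hand2 had log2 ratios of 1.70 and 1.53, and Bcl11a 2.30 and 4.23. Osr1 was level in LI (-0.28) and higher in SI (2.29). Prrx1 was lower in both (-2.34 and -1.93), and Gata6 was lower in LI (-2.06) and had 0 UMIs in SI members. In SI Pitx1 had 0 UMIs in members as well, and Tcf21 was lower (126 against 273 CPM, log2 -1.11, -1.59 to -0.67).

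Hox genes keep a record of position along the gut, and they check the site labels. The 16 genes of paralogue groups 9 to 13 summed to 1139 CPM (1087 to 1193) in LI members and 299 CPM in other LI cells. In SI members they had 0 UMIs, which allows up to 9.45 CPM at 3 UMIs, and other SI cells had 8.75 CPM. The 23 genes of groups 1 to 8 summed to 565 against 245 CPM in LI and 1137 against 519 CPM in SI. Wherever members held UMIs of a sum, it was higher in them than in other cells. In LI members Hoxd9 was at 293 against 47.1 CPM, Hoxd11 at 231 against 36.8 CPM and Hoxa10 at 198 against 61.8 CPM. In SI members Hoxb4 was at 192 against 105 CPM and Hoxa5 at 110.2 against 34.8 CPM. Hoxc9 went the other way in LI (log2 -0.49).

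Fibroblast markers were lower in members, and matrix genes were lower in part. Of 10 fibroblast (FB) markers 9 in LI and 10 in SI were at least 2-fold lower. Dcn, a small proteoglycan of collagen matrix, stood at 2014 against 12612 CPM (log2 -2.65, -2.70 to -2.60) in LI and 793 against 12957 CPM (log2 -4.03, -4.21 to -3.85) in SI. Col1a1 stood at 1443 against 5145 CPM in LI and 775 against 6342 CPM in SI. Pdgfra, a receptor of fibroblasts, was level in LI (166 against 169.6 CPM, log2 -0.04, -0.22 to 0.14) and lower in SI (28.3 against 234 CPM, log2 -3.0, -4.07 to -2.10). Of 26 extracellular matrix genes 15 were lower in LI and 21 in SI, with medians of -1.09 and -2.38. In LI 0 were higher and in SI 1, which was Thbs4. The basement membrane collagens Col4a1 and Col4a2 were under 2-fold in both libraries (Col4a1 log2 -0.31 and -0.97).

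The 10 genes lowest by mean ratio were Adamdec1, Tnfaip6, Ly6c1, C3, Fmo2, Plxdc2, Fbln2, Ctsh, Mmp23 and Igfbp3. Adamdec1, a metalloprotease of mucosal fibroblasts, stood at 478 against 2919 CPM (log2 -2.61, -2.71 to -2.50) in LI and 9.45 against 1995 CPM (log2 -7.58, -9.40 to -6.12) in SI. C3, the central complement component, stood at 67.0 against 382 CPM (log2 -2.49, -2.78 to -2.22) in LI and 9.45 against 458 CPM (log2 -5.46, -7.28 to -4.00) in SI. Ly6c1, Ctsh and Igfbp3 had 0 UMIs in SI members and were there at least 8.30-fold, 5.82-fold and 7.22-fold lower, set against the level that 3 UMIs would give. In LI their log2 ratios were -2.26, -1.26 and -0.88. Tnfaip6, Fmo2, Plxdc2, Fbln2 and Mmp23 had ratios of -1.87 to -3.91 in LI, and each rested on at most 3 UMIs in SI members.

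Immediate early and heat shock genes, which turn on within minutes of stress or stimulation, were also lower, 8 of 10 in LI and 10 of 10 in SI, with medians of -1.44 and -2.30. Fos stood at 2682 against 6410.1 CPM in LI and 1234 against 5897 CPM in SI, and Atf3 at 191 against 1051 CPM in LI and 258 against 1319 CPM in SI. The heat shock gene Hspa1b was level in LI (-0.02) and lower in SI (-2.58). Of 16 interferon and antigen presentation genes 0 were higher in either library, 3 were lower in LI and 4 in SI, and the others were under 2-fold. The pooled LI values mix groups that parted on these genes, with Cd74 at 1089 CPM in members of cluster 13 and 28.5 CPM in those of cluster 12. The chemokines Cxcl9 (-3.70 and -2.59) and Cxcl10 (-3.44 and -2.52) and the factor Irf1 (-1.37 and -2.29) were lower at both sites, and Iigp1 was the fourth in SI (-1.56). Cell cycle genes had no common direction. Of 7 tested in LI 1 was higher and 0 lower, and of 7 in SI 2 were higher and 4 lower, with a median of -1.18. Mki67 was higher in LI (log2 1.09, and 0.78 with TMM factors) and SI (1.63), with UMIs in 11 and 4 members. Top2a (-1.18), Cdk1 (-1.60), Birc5 (-1.29) and Ube2c (-1.89) were lower in SI, on only 5, 2, 3 and 3 member UMIs. The intervals of Cdk1 and Birc5 included 0, and that of Top2a ended at -0.01.

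Of the smooth muscle markers, the counts past 2-fold were near the shares of all genes and changed with the scaling. Of 9 tested in each library, 1 was higher and 1 lower in LI, with the same counts in SI. With TMM factors 0 of 9 were higher and 4 lower in LI, and 0 and 2 of 10 in SI, where 1 more gene reached the minimum level. Acta2 stood at 718 against 1009 CPM in LI and 1990 against 2008 CPM in SI, and the actin-binding gene Synpo2 was the 1 that was higher, at 49.9 against 23.0 CPM in LI and 81.9 against 36.1 CPM in SI. Among 9 pericyte markers tested in LI, 1 was higher and 4 were lower (Pdgfrb, Notch3, Ndufa4l2 and Cox4i2), and of 10 in SI 2 were higher and 0 lower. Over all genes 9.21% were higher and 6.92% lower in LI, and 14.9% and 13.4% in SI. The counts of higher pericyte markers were thus near the shares of all genes. The subunits of the ATP-gated potassium channel were higher in SI, Kcnj8 at 346 against 62.4 CPM (log2 2.45, 2.17 to 2.73) and Abcc9 at 173 against 44.3 CPM (log2 1.94, 1.53 to 2.33), and under 2-fold in LI (0.95 and 0.36). Rgs5 was higher in LI members (656 against 279.6 CPM, log2 1.23, 1.13 to 1.32), though under 2-fold with TMM factors (0.90), and not in SI (828 against 1051 CPM, log2 -0.34, -0.52 to -0.17). Against cells with Myh11, Actg2 and Des, taken as visceral smooth muscle, Etv1 had log2 ratios of 6.33 in LI and 5.33 in SI, Hand1 3.30 and 5.19, and Slc12a2 2.35 and 3.20. Kcnk3 had 3.39 and 3.41, with a UMI in 16.7% and 24.7% of these smooth muscle cells.

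Markers of other Kit+ cells were near 0. The 8 mast cell markers summed to 0.632 CPM in LI members and 0 UMIs in SI members, and 7 of the 8 had 0 UMIs in LI. The 6 melanocyte markers summed to 12 and 6.30 CPM, with 4 and 5 of them at 0. Epithelial markers summed to 15.8 and 6.30 CPM and glial or neuronal markers to 18.3 and 6.30 CPM. Mesothelial markers summed to 13.3 and 31.5 CPM, below the 84.5 and 142 CPM of other cells. The 9 other immune markers summed to 114 and 63.0 CPM, against 97.1 and 63.4 CPM in other cells. Lyz2, the lysozyme of macrophages and other myeloid cells, gave most of the sum and was higher in LI members (91.6 against 44.6 CPM, log2 1.02, 0.77 to 1.26), with UMIs in 31.4% of members and 10.9% of other cells, though under 2-fold with TMM factors (0.70). In SI it stood at 53.5 against 28.6 CPM (log2 0.88, 0.12 to 1.56). Tyrobp, Fcer1g and Cd52 were lower in LI members than in other cells (log2 -1.31, -0.83 and -1.02), and the part of myeloid RNA in the Lyz2 value was not tested. Haemoglobin genes summed to 0.632 CPM in LI and 0 UMIs in SI. Endothelial markers summed to 81.5 and 15.7 CPM. Lyve1, a hyaluronan receptor of lymphatic vessels and some macrophages, made up most of the LI sum (70.1 against 2.17 CPM, log2 4.49, 4.16 to 4.80), with UMIs in 32 members.

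Members carried more mitochondrial UMIs than other cells, and the limit of 10% is part of the rule, so these values are a description. The median share was 4.44% in LI members against 2.55% in other cells, and 6.18% against 2.35% in SI. Cells with Kit and Ano1 made up 0.304% of barcodes with up to 2.5% mitochondrial UMIs in LI, 4.23% of those with 2.5 to 5% and 11.7% of those with 5 to 10%. In SI the shares were 0.0678%, 0.680% and 6.58%. Beyond the limit, between 10 and 20%, 20 more SI barcodes (5.01%) and 16 more LI barcodes (2.67%) held both genes. With the limit at 20%, the SI members went from 59 to 79. The 13 proteins encoded by the mitochondrion summed to 43865 against 25758 CPM in LI and 60576 against 24308 CPM in SI. Nuclear genes of oxidative phosphorylation, a list chosen after values had been seen, were 2-fold higher in 5 of 78 in LI, no larger a share than the 9.21% of all genes, and 2, Cox4i2 and Ndufa4l2, were lower. In SI 36 of 80 were higher and 0 lower, where 14.9% of all genes were higher. With TMM factors the counts of higher genes were 1 and 17.

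**Figure D4:**
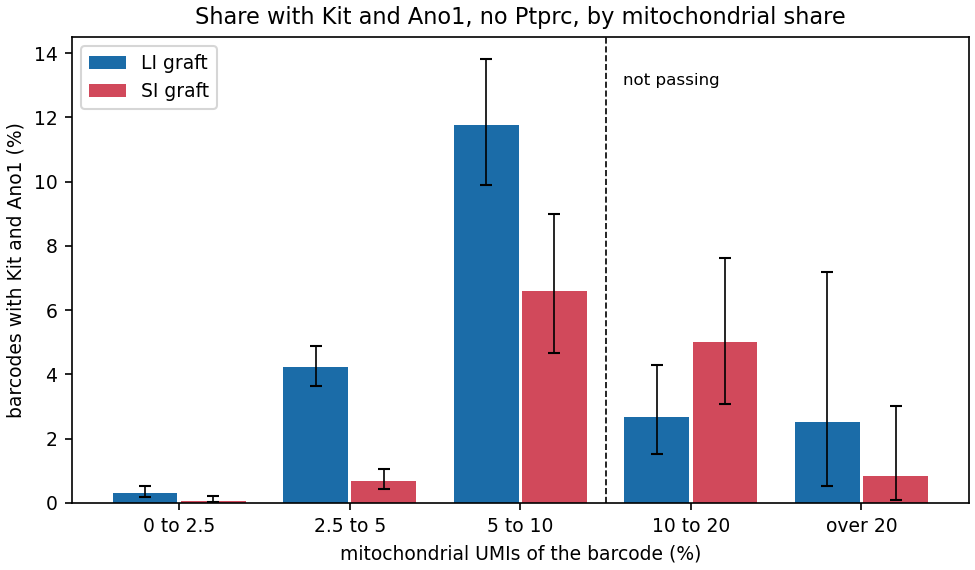
Share of barcodes with at least 500 genes that held Kit and Ano1 and no Ptprc UMI (%, bars with 95% Clopper-Pearson intervals) by the mitochondrial share of the barcode (%). In both grafts the share is highest between 5 and 10% mitochondrial UMIs, at 11.7% in LI and 6.58% in SI, where its interval overlaps that of the 10 to 20% bin.

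The LI members fell into 2 groups that also differed by the sex of the cells. A cell was called female with Xist and no Y-linked UMI and male in the reverse case. Of the 235 members in cluster 12, 219 were female and 1 male, and of the 47 in cluster 13, 2 were female and 33 male. Of the 34 male LI members, 33 thus lay in cluster 13, and other LI cells were 80.8% female and 8.95% male. The grafts pooled in this library are not marked in the labels, so that sex, embryo and graft cannot be told apart. Since clusters were built from the same genes, the differences between these groups are a description. At a resolution of 0.4 the groups were not separate, and 281 of the 318 LI members lay in 1 cluster of 387 cells. The median mitochondrial share was 4.99% in members of cluster 12 and 3.52% in those of cluster 13.

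Of 9 ICC markers tested between the groups, 5 were 2-fold lower in members of cluster 13 than in those of cluster 12 (Etv1, Prkcq, Edn3, Gja1 and Adgrd1) and 1, Thbs4, was higher at 259 against 63.0 CPM. Etv1 stood at 503 against 1179.5 CPM (log2 -1.23, -1.49 to -0.97), Prkcq at 69.2 against 444 CPM and Edn3 at 211 against 608 CPM, and Gpr20 was level at 160.3 against 193 CPM. At the same time Etv1 in cluster 13 members lay above the 29.6 CPM of other LI cells. In the 114 cells of cluster 13 that were no members, Etv1 stood at 210 CPM, Edn3 at 108 CPM and Prkcq at 28.4 CPM. These values too lay above those of the pooled other LI cells. Over all 9605 genes tested, 8.84% were 2-fold higher in cluster 13 members and 15.5% lower. The gene furthest apart was Lcn2, an iron-binding protein of innate defence, with 1166 CPM in cluster 13 members and 0 UMIs in cluster 12 members, at least 382-fold higher. The acute phase protein Saa3 stood at 1162 against 5.08 CPM and Ctla2a, a cathepsin inhibitor, at 2131 against 25.4 CPM. Saa3 UMIs lay in only 10.6% of cluster 13 members, beside 57.4% for Ctla2a and 51.1% for Lcn2. Cd74, the chaperone of MHC class II, stood at 1089 against 28.5 CPM, and 12 of 16 interferon and antigen presentation genes were 2-fold higher. The 114 other cells of cluster 13 held Lcn2 at 919 CPM, Cd74 at 1166 CPM, Ctla2a at 641 CPM and Saa3 at 201 CPM. Thbs4 stood at 701 CPM in those cells, above its level in the members. Limch1, Itga8 and Tnnt1 had 0 UMIs in cluster 13 members and 116, 75.2 and 68.1 CPM in cluster 12 members.

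Cells that were no members also differed by sex. In other LI cells Ctla2a stood at 1980.2 against 161 CPM in male against female cells and Cd74 at 910.4 against 102 CPM. Lcn2 was at 67.4 against 18.2 CPM and Saa3 at 136 against 87.0 CPM. In SI 7 of the 10 male members lay in cluster 16 beside 24 female members, and Lcn2 and Saa3 had 0 UMIs in SI members of either sex. Etv1 stood at 1034 CPM in male and 813 CPM in female SI members (log2 0.35, -0.13 to 0.80). In LI it was 527 and 1053 CPM (log2 -1.0, -1.30 to -0.71).

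The SI members also formed 2 groups, and the second, in a cluster that is smooth-muscle-like, held less Etv1 and Prkcq than the first. Their median mitochondrial share differed too, at 3.96% in members of cluster 13 and 7.84% in those of cluster 16. Its part in the values below was not tested. In the 16 members of cluster 13 Etv1 stood at 88.7 against 1241 CPM (log2 -3.79, -5.10 to -2.73) against the 37 of cluster 16, Prkcq at 12.7 against 694 CPM, Slc12a2 at 76.0 against 1022 CPM and Edn3 at 50.7 against 756 CPM. Etv1 and Edn3 lay above the 34.7 and 16.1 CPM of other SI cells, on 7 and 4 UMIs, and Prkcq rested on 1 UMI. Kcnk3, Pcdh17 and Ctxn3 had 0 UMIs in them and 933, 871 and 302 CPM in cluster 16 members. Ano1 was less far apart, at 646 against 845 CPM (log2 -0.39, -0.87 to 0.08), and Kit was at 368 against 1189 CPM. Of 10221 genes tested, 25.2% were 2-fold higher and 23.9% lower in cluster 13 members, counts that rest on 78909 and 191763 UMIs.

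Other genes were higher in the cluster 13 members of SI than in those of cluster 16. Pln stood at 2192 CPM with 0 UMIs in cluster 16 members, at least 140.1-fold higher. The chemokine Cxcl14 was at least 62.4-fold higher, the adhesion molecule Chl1 34.0-fold, the homeobox factor Irx3 22.7-fold and the secretin receptor Sctr 19.4-fold, each with 0 UMIs in cluster 16 members. The 89 other cells of cluster 13 held these genes too, at lower levels, with Pln at 205 CPM, Cxcl14 at 284 CPM, Chl1 and Irx3 at 17.4 CPM each and Sctr at 12.8 CPM. Thbs4 stood at 1736 against 88.7 CPM (log2 4.28, 3.55 to 5.09). Tacr1, which ICC of the deep muscular plexus of the small intestine are known to carry, was found in these members and not in those of cluster 16 (114 CPM), and so was Hcn4 (88.7 CPM). Contractile genes were not uniformly higher, with Myh11 at 177 against 20.9 CPM and Actg2 at 203 against 239.9 CPM. Immediate early and heat shock genes were 2-fold higher in 8 of 10. When the clustering was made finer (resolution 1.6), these members lay together in a cluster of 39 cells, of which 41.0% were members. On 15 principal components the 2 groups were not separate, and 53 of the 59 SI members lay in 1 cluster of 69 cells.

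**Figure D5:**
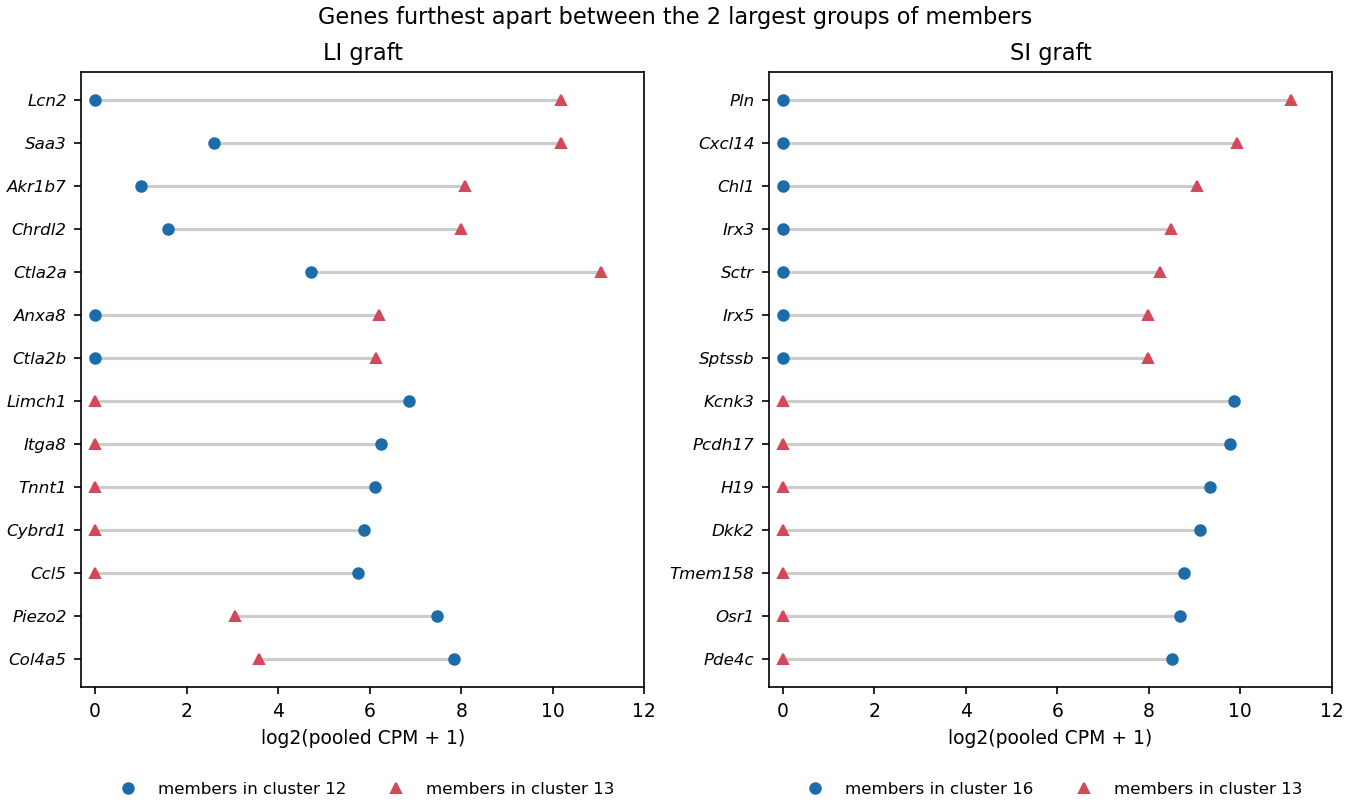
Pooled level, as log2(CPM + 1), of the 7 genes furthest apart each way between the 2 largest groups of members in each graft, cluster 12 against 13 in LI and cluster 16 against 13 in SI (circles and triangles). Points at 0 stand for 0 UMIs. In SI all 14 genes have 0 UMIs in 1 of the 2 groups.

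Between LI and SI members, the intervals of Etv1 and Gja1 included no difference. Etv1 stood at 876 CPM in LI and 806 CPM in SI (log2 0.12, -0.07 to 0.32) and Gja1 at 668 CPM in LI and 595 CPM in SI (log2 0.17, -0.06 to 0.40). The levels of the rule genes, which chose the members, are a description, Kit at 1258 CPM in LI and 853 CPM in SI (log2 0.56, 0.38 to 0.75) and Ano1 at 793 CPM in LI and 718 CPM in SI (log2 0.14, -0.06 to 0.35). In the leading clusters, 12 of LI and 16 of SI, Etv1 stood at 1179.5 CPM in LI and 1241 CPM in SI (log2 -0.07, -0.28 to 0.13). Others differed. Gpr20 was higher in SI, at 159 CPM in LI and 507 CPM in SI (log2 -1.66, -1.95 to -1.37), and Enpep was higher in LI, at 551 CPM in LI and 211 CPM in SI (log2 1.38, 1.02 to 1.76). In the leading clusters alone these ratios were -1.81 and 1.36. Thbs4 was higher in SI members (log2 -2.07) but not in the SI leading cluster (-0.49, -1.27 to 0.37).

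With Hox genes left out, the 5 genes highest in LI over SI members were Rprm, Saa3, Lcn2, Pitx1 and Igfbp3, all with 0 UMIs in SI members. Rprm, which restrains the cell cycle, was at least 28.6-fold higher in LI members and Pitx1, a homeobox factor of hindlimb and hindgut, at least 16.2-fold. Other LI and SI cells had Pitx1 at 145 and 12.9 CPM, and Rprm at 7.77 and 1.46 CPM. Saa3 and Lcn2 came mostly from LI cluster 13, where 10.6% of members held a Saa3 UMI and 51.1% an Lcn2 UMI. In cluster 12 members Saa3 and Lcn2 stood at 5.08 CPM and 0 UMIs. The 5 highest in SI were Irx3, Sctr, Irx5, Pln and Colec10. Irx3, Sctr, Irx5 and Pln had 0 UMIs in SI cluster 16, and Colec10 stood at 119.9 CPM there against 10.2 CPM in LI cluster 12. Named after their values were seen, Hand1 (111 CPM in LI and 495 CPM in SI, log2 -2.15, -2.56 to -1.74), Osr1 (44.7 CPM in LI and 407 CPM in SI, log2 -3.16, -3.71 to -2.61) and Gucy1a1 (701 CPM in LI and 104 CPM in SI, log2 2.74, 2.10 to 3.45) also differed between the leading clusters, as did Chrm2 (3.05 CPM in LI and 67.8 CPM in SI, log2 -4.09, -5.61 to -2.46). Since each site had 1 library, site, kit and graft cannot be told apart in these values.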

How the data were processed

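Single-cell RNA-seq was performed on 1 LI and 1 SI graft library. Per the submitters' processing notes the tools were Cell Ranger 3.1.0 and Seurat 3, with mm10 as the genome build. The authors deposited raw UMI counts per gene and barcode, with no normalization, for 28692 features. A UMI is counted once per molecule. Coordinates came from GENCODE vM21 (GRCm38, mm10).

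Members were picked by the stated rule, and the members, gene lists and tests were chosen with earlier results of these data known. The list of nuclear oxidative phosphorylation genes was added after values had been seen. Counts of a group were pooled to CPM, and log2 ratios carry a pseudocount of 1 CPM. Genes with at least 10 CPM in either group were compared, called tested in the text, and counted as higher or lower from 2-fold. Intervals at 95% are exact (Poisson, Clopper-Pearson or a binomial split) and cover counting error only. With 1 library per group there is no p-value. Where a group had 0 UMIs, folds are bounds set at 3 UMIs over the group.

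Named genes were the 20 highest and 10 lowest by the mean of both libraries' ratios, with at least 50 CPM in members or other cells respectively and intervals clear of 0, the 5 furthest apart each way between LI and SI members, and examples from the lists. A gene of the transcription factor list is not reported here. Rule genes, mitochondrial, sex-linked and haemoglobin genes were left out of these rankings, and Hox genes out of that between LI and SI members. Genes named between groups of members were chosen after their values were seen. Each library was clustered in Seurat 5.3.0 under R 4.3.3 (log-normalised counts, 2000 variable genes without the rule, Hox, mitochondrial and sex-linked genes, cell cycle scores regressed, 30 principal components, 20 neighbours, Louvain resolution 0.8). Doublets were scored with Scrublet in scanpy 1.11.5, whose own threshold called 0 barcodes in LI and 0 in SI, and were kept. Removal at 0.8% per 1000 barcodes was an alternative. TMM factors came from edgeR 4.0.16, used for scaling only. Other alternatives were limits on genes and mitochondrial UMIs, UMIs needed, sex of the cells, thinning, pseudocount, minimum CPM and clustering settings. Scripts were tested on simulated data.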

Additional observations from a re-analysis of the deposited data

Results flagged for a closer look

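Barcodes outside the quality limits were not part of any comparison, and some held a Kit and an Ano1 UMI and no Ptprc UMI. The LI graft gave 28 such barcodes and the SI graft 23, the latter beside 59 members. A count above the limit of 3 that a count of 0 allows flagged both.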

How the results depend on the processing

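No paired analysis was possible because there was 1 library per group. Of 186 values under 20 alternative settings, 122 stayed within the interval or within 1.5 times the count and 64 moved. The leading cluster alone and the limits of 500 genes and 20% were chosen after seeing the data. Of 308 values of listed or named genes past 2-fold, each gene counted once per library, 262 remained so under TMM scaling. The values that moved follow, and the cause was not tested. With 200 genes and 20% mitochondrial UMIs as limits, the Etv1 log2 ratio was 4.79 in SI. With 1000 genes and 5% as limits, the share of members was 2.25% in LI and 0.312% in SI, the Etv1 log2 ratio was 4.49 in LI and 2.47 in SI and the ICC marker median log2 ratio was 3.68 in LI and 2.99 in SI. With the highest doublet scores removed, the Etv1 log2 ratio was 5.07 in LI, the ICC marker median log2 ratio was 4.06 in LI, the sum of Hox groups 9 to 13 was 1294 CPM in LI and the sum of Hox groups 1 to 8 was 636 CPM in LI. With 2 UMIs of both rule genes required, the share of members was 2.36% in LI and 0.493% in SI, the Etv1 log2 ratio was 4.84 in SI and the sum of Hox groups 9 to 13 was 1209 CPM in LI. In female cells alone, the Etv1 log2 ratio was 5.06 in LI and 4.13 in SI and the ICC marker median log2 ratio was 4.08 in LI. In male cells alone, the share of members was 3.82% in LI and 0.520% in SI, the Etv1 log2 ratio was 4.60 in LI and 5.62 in SI, the number of genes 2-fold higher was 2048 in LI and 2783 in SI, the number 2-fold lower was 1143 in LI and 2652 in SI and the ICC marker median log2 ratio was 3.04 in LI and 4.25 in SI. After thinning to 2000 UMIs, the share of members was 2.37% in LI and 0.543% in SI, the number of genes 2-fold higher was 1392 in LI and 2418 in SI, the number 2-fold lower was 1010 in LI and 2211 in SI and the ICC marker median log2 ratio was 4.02 in LI. With 500 genes and 20% mitochondrial UMIs, the Etv1 log2 ratio was 4.79 in SI. By the mean CPM per cell, the Etv1 log2 ratio was 4.73 in LI and 4.30 in SI, the ICC marker median log2 ratio was 3.99 in LI, the sum of Hox groups 9 to 13 was 1308 CPM in LI and the sum of Hox groups 1 to 8 was 644 CPM in LI. With a pseudocount of 5 CPM, the Etv1 log2 ratio was 4.67 in LI and the ICC marker median log2 ratio was 3.72 in LI. With TMM scaling, the Etv1 log2 ratio was 4.52 in LI and 4.24 in SI, the number of genes 2-fold higher was 482 in LI and 907 in SI, the number 2-fold lower was 1000 in LI and the ICC marker median log2 ratio was 3.51 in LI. With the members of the leading cluster alone, the Etv1 log2 ratio was 5.27 in LI and 5.12 in SI, the number of genes 2-fold higher was 1330 in LI and the ICC marker median log2 ratio was 4.23 in LI. Without a minimum CPM, the number of genes 2-fold higher was 1375 in LI and 2120 in SI, the number 2-fold lower was 1227 in LI and 2998 in SI and the ICC marker median log2 ratio was 3.06 in LI. With a minimum of 50 CPM, the number of genes 2-fold higher was 334 in LI and 609 in SI and the number 2-fold lower was 307 in LI and 480 in SI. At a clustering resolution of 0.4, the share of members in 1 cluster was 88.4% in LI, where the 2 groups of members merged. On 15 principal components, the share of members in 1 cluster was 89.8% in SI, where they also merged. The 59 SI members gave 317585 UMIs in all and the 318 LI members 1583060, and these totals set the counting intervals.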

Other observations

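In the RefSeq promoter windows of GRCm38.p6, from 250 bases before to 50 bases after the gene start, the letters GGAA, the core of ETS factor sites, were found on either strand (TTCC on the other) 1 time for Kit, 3 times for Ano1 and 5 times for Etv1. Of all 32851 windows, 96.0% held at least 1 match and the median was 3, so the counts are a description and name no site.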
